A study of Mus musculus with 68 samples.

Results

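The 10 genes described here belong to the p53 pathway. They are Trp53 itself, its inhibitors Mdm2 and Mdm4, and the p53 targets Cdkn1a, Ccng1, Phlda3, Sesn2, Zmat3, Trp53inp1 and Aen. These were chosen by gene symbol, out of the 24421 annotated genes that every deposited table lists. The choice of them, and of the lists of other genes used below, was made with earlier results of these data known. Each of the 10 was found on 1 row of all 68 tables. It was asked whether these genes respond in blastocysts injected with a morpholino against Max or Mcrs1, and how their levels run over the stages of SCNT embryos.

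p53 is a transcription factor that is kept low in unstressed cells, because the ubiquitin ligase Mdm2 marks it for degradation and Mdm2's relative Mdm4 masks its activation domain. After DNA damage or other stress the protein is stabilised, binds pairs of decamer half-sites in its targets and raises genes of cell cycle arrest, repair, metabolism and cell death, Mdm2 among them. Since p53 is controlled mostly after translation, the Trp53 mRNA by itself says little about its activity, and the transcripts of its targets are the usual readout.

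Polyadenylated RNA was measured by Smart-seq2, an assay that copies RNA from a few cells, here from 10 blastomeres per library. In the knockdown experiment, zygotes of C57BL/6j mothers and fathers were injected with a morpholino, an antisense oligonucleotide that blocks translation or splicing of its target, against Max (Max MO) or Mcrs1 (Mcrs1 MO), or with a random control morpholino (control MO). The inner cell mass (ICM) and the trophectoderm (TE) of the resulting fertilized blastocysts were separated by micromanipulation, with 2 libraries for each lineage and morpholino, 12 in all. The labels call the control libraries untreated, and their morpholino is known only from the protocol. The 3 morpholinos were each given at a concentration of their own, lowest for Mcrs1 MO and highest for control MO, so that dose and target cannot be told apart. In the other experiment, nuclei of cumulus cells (CCs) of BDF1 mice (B6D2F1 in the study's methods) were injected into enucleated BDF1 oocytes, which gives somatic cell nuclear transfer (SCNT) embryos. These were collected 6 and 14 h after activation (6 hpa and 14 hpa), at the early and late 2-cell stages (E2C and L2C), with 4 cells (4C), with 8 cells (8C), as morulae, and as ICM and TE of the blastocyst. There are 6 libraries for each stage, except 5 at 4C, together with 3 of CCs. The study calls these libraries biological replicates, and the labels do not say which embryos went into each, so p-values measure the spread between libraries.

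Levels are given in TPM, a unit of transcript level that is scaled per transcript length and per library, as deposited. The depth, taken as coverage over FPKM, was between 1.00 and 5.17 aligned gigabases, with between 6177 and 11771 genes at 1 TPM or more in a library. A value of 0 in 1 library can be a missed transcript, and is given as listed at 0. The SCNT ICM libraries of replicates 1 to 3 stood apart, with between 6177 and 6771 genes at 1 TPM or more against between 9011 and 10032 in replicates 4 to 6. A change is a difference of means on the log2(TPM + 1) scale, which understates the change of low genes, and a gene is called where limma's adjusted p is under 0.05 and the change is at least 2-fold. Fewer cells of a type and less RNA per cell cannot be told apart in these bulk libraries.

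The lineage labels were checked with 6 ICM markers (Pou5f1, Nanog, Sox2, Klf2, Esrrb and Tdgf1) and 7 TE markers (Cdx2, Krt8, Krt18, Eomes, Gata3, Tfap2c and Elf5). In the fertilized TE libraries the TE markers summed to 15179 to 21223 TPM. The 2 control MO ICM libraries lay far apart, at 16259.9 TPM in replicate 1, which is within the range of the TE libraries, and 622 TPM in replicate 2. The Max MO ICM libraries were at 2770.2 and 5903 TPM and the Mcrs1 MO ICM libraries at 11622 and 8114 TPM. All 7 TE markers reached 1 TPM in the median of each of these ICM groups. Every ICM comparison with control MO therefore rests on 2 control libraries of unlike TE marker content, and the counts called in these comparisons are given below with and without each of them. The ICM markers summed to 1392 and 1897 TPM in control MO ICM. They summed to 1035 and 1153 TPM in Max MO ICM and 406 and 981 TPM in Mcrs1 MO ICM. In TE the ICM markers were at 205 and 323, 160 and 225 and 427 and 556 TPM in the same order. Mcrs1 MO ICM replicate 1 thus lay below both Mcrs1 MO TE libraries. Tfap2c was called lower in every comparison with control MO, and Klf2 was called lower in Mcrs1 MO ICM (log2 fold change of -2.64). In the SCNT blastocysts the TE markers summed to 2034 to 8506 TPM in the ICM and 5143 to 16191 TPM in the TE, and the ICM markers to 211 to 763 and 62.9 to 338 TPM, so that both sums overlapped between the labelled lineages.

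Primitive endoderm, the other lineage of the inner cells, was followed with 4 markers (Gata6, Gata4, Sox17 and Pdgfra), whose sum moved with the morpholinos in ICM. It was at 35.8 and 34.9 TPM with control MO, 264 and 76.5 TPM with Max MO and 86.2 and 80.0 TPM with Mcrs1 MO. In control MO ICM replicate 1, Gata4 and Sox17 were listed at 0, and in replicate 2 both were near 0. Sox17 and Gata4 were called higher with Max MO (log2 fold changes of 6.18 and 3.23) and with Mcrs1 MO (4.83 and 3.43), and the changes of Gata6 and Pdgfra did not pass the test. With Max MO both stayed called without either control library, and with Mcrs1 MO 1 of them did without control MO replicate 2. Both calls were lost without Max MO ICM replicate 1 for Max MO, and without either Mcrs1 MO ICM library for Mcrs1 MO. In TE the sums overlapped between the groups, at 25.6 to 31.0 TPM with control MO, 20.6 to 55.7 TPM with Max MO and 24.8 to 39.7 TPM with Mcrs1 MO, and no marker was called.

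**Figure D1:**
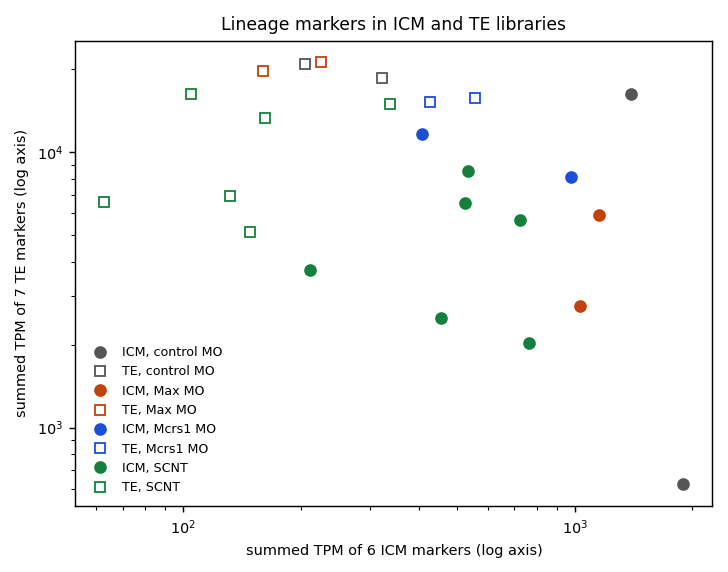
Summed TPM of the 6 ICM markers (x axis) against that of the 7 TE markers (y axis), both on log axes, with 1 point per library; filled circles are ICM libraries, open squares TE libraries, and colours mark control MO, Max MO, Mcrs1 MO and SCNT embryos. One control MO ICM library sits at 16259.9 TPM of TE markers, at the height of the TE libraries, and the other at 622 TPM.

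In the deposited coordinates (mm10), the genes lie at chr11:69580359-69591873 (Trp53), chr10:117688875-117710758 (Mdm2), chr1:132986105-133030587 (Mdm4), chr17:29090986-29100722 (Cdkn1a), chr11:40748552-40755286 (Ccng1), chr1:135766085-135769134 (Phlda3), chr4:132492807-132510456 (Sesn2), chr3:32334794-32365665 (Zmat3), chr4:11156441-11174377 (Trp53inp1) and chr7:78895927-78908833 (Aen). GENCODE annotates processed pseudogenes named Trp53-ps and Mdm4-ps, and a transcript of another gene overlaps each of Mdm4, Sesn2 and Cdkn1a. Smart-seq2 keeps no strand, so reads shared with these features cannot be separated in the tables. The ratio of coverage to FPKM of Cdkn1a was 0.291 to 0.592 times that of other genes in the same library, so its TPM is less comparable with the TPM of other genes than theirs are with each other. With coverage in place of TPM, an alternative added after seeing the data, the number of members called was the same in every comparison.

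The promoters of 8 of the 10 genes were found in the RefSeq table (build GRCm38.p6, 11 windows from 250 bases before to 50 after a start), and those of Zmat3 and Trp53inp1 were not. They were searched on 1 strand, which suffices for a palindromic motif, for the p53 response element, taken as 2 adjacent p53 decamer half-sites with no spacer, the central C and G of both half-sites present and at most 1 mismatch in 20 bases. Of all 32851 windows, 22 (0.0670%) held such a pair. Among the 11 windows of the members 2 did, the upstream start of Cdkn1a and the start of Ccng1. Among 38 windows of 29 other p53 targets 2 did, Gtse1 and Rps27l, and Rps27l is shown because it was called higher with both morpholinos. The capitals mark the pair of half-sites, in the 250 bases before the start for Cdkn1a and Ccng1 and with 30 bases on either side for Rps27l. The pair ends 31 bases before the start in Cdkn1a and 175 in Ccng1. In Rps27l it ends 97 bases before the downstream of 2 listed starts, so that it may lie within the gene. A match of letters is a description, and binding of p53 was not measured.
Cdkn1a (chr17:29090729-29090978, plus strand): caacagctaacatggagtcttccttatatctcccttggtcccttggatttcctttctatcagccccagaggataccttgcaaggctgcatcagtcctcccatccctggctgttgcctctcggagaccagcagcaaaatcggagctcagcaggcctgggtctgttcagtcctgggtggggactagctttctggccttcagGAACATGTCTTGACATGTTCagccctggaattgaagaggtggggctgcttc
Ccng1 (chr11:40755287-40755536, minus strand): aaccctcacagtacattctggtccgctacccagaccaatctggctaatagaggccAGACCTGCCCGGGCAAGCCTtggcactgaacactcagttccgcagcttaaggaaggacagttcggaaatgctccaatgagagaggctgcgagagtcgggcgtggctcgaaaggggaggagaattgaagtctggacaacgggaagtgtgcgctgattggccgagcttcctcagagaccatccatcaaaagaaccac
Rps27l (chr9:66946266-66946345, plus strand): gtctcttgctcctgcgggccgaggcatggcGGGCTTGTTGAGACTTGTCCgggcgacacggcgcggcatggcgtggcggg

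The targeted genes were examined first in the knockdown experiment. Max, the partner of MYC proteins, was at 38.0 and 8.42 TPM in control MO ICM and 6.82 and 0.443 TPM in Max MO ICM, with a change of -2.51 (SE 0.80, adjusted p = 0.0397) on the log2 scale. In TE, Max was at 34.5 and 28.5 TPM with control MO and 16.3 and 8.68 TPM with Max MO, where the log2 fold change of -1.32 (SE 0.80, adjusted p = 0.390) did not pass the test. The ICM call of Max itself held in 8 of 21 alternative analyses. Mcrs1, a subunit of the NSL and INO80 chromatin complexes, was at 253 and 310.1 TPM in control MO ICM and 86.8 and 73.4 TPM in Mcrs1 MO ICM, with a log2 fold change of -1.80 (SE 0.21, adjusted p = 0.00333). In TE, Mcrs1 was at 219 and 294 and 41.1 and 45.5 TPM, with a change of -2.53 (SE 0.21, adjusted p = 8.68e-04). The mRNA of each target was lower in every library of its morpholino than in every control library of the same lineage. Max was also below both TE controls with Mcrs1 MO, at 17.6 and 15.7 TPM. Between Max MO and Mcrs1 MO it differed by -0.44 (SE 0.80) in TE and -1.90 (SE 0.80, adjusted p = 0.222) in ICM, neither called. A fall of the Max mRNA particular to its own morpholino was thus not shown, while the Mcrs1 mRNA was called between the morpholinos in both lineages. A morpholino can block translation, so these mRNA levels alone do not measure the knockdown, and protein is not in these data. The study determined its knockdown efficiency by quantitative RT-PCR at the morula or blastocyst stage.

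No member was called higher with either morpholino in either lineage. In Max MO ICM 4 of the 10 members fell (Sesn2, Trp53inp1, Mdm4 and Ccng1). Over the 11219 genes tested, 8.65% of all genes were called higher and 15.1% lower (23.7% in either direction). The median log2 fold change of the members was -1.02, and that of all genes tested -0.21. In Mcrs1 MO ICM 1 member, Sesn2, fell, where 4.88% of all genes were called higher and 5.21% lower (10.1% in either direction). The medians were -0.57 for the members and -0.05 for all genes. In TE no member was called by limma with Max MO (0 at an unadjusted p under 0.05), where 1.04% of all genes were called higher and 1.45% lower (2.5% in either direction). None was called in TE with Mcrs1 MO either (2 at an unadjusted p under 0.05, Ccng1 and Sesn2), where 1.77% of all genes were called higher and 3.31% lower (5.08% in either direction). The median log2 fold change in TE was -0.06 against -0.19 for all genes with Max MO, and 0.25 against -0.24 with Mcrs1 MO. Both morpholinos were compared with the same control libraries, so the comparisons within a lineage are not independent of each other. With 2 libraries a group, values apart from both controls were common among all genes. In Max MO ICM 33.4% of all genes lay below both controls and 23.5% above, with 6 and 0 of the members. The shares were 36.3% and 21.2% in Max MO TE (1 and 1 members), and 26.4% and 23.3% in Mcrs1 MO ICM (4 and 1). In Mcrs1 MO TE they were 40.3% and 22% (2 and 5). Such a separation alone thus does not set a member apart from other genes.

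**Figure D2:**
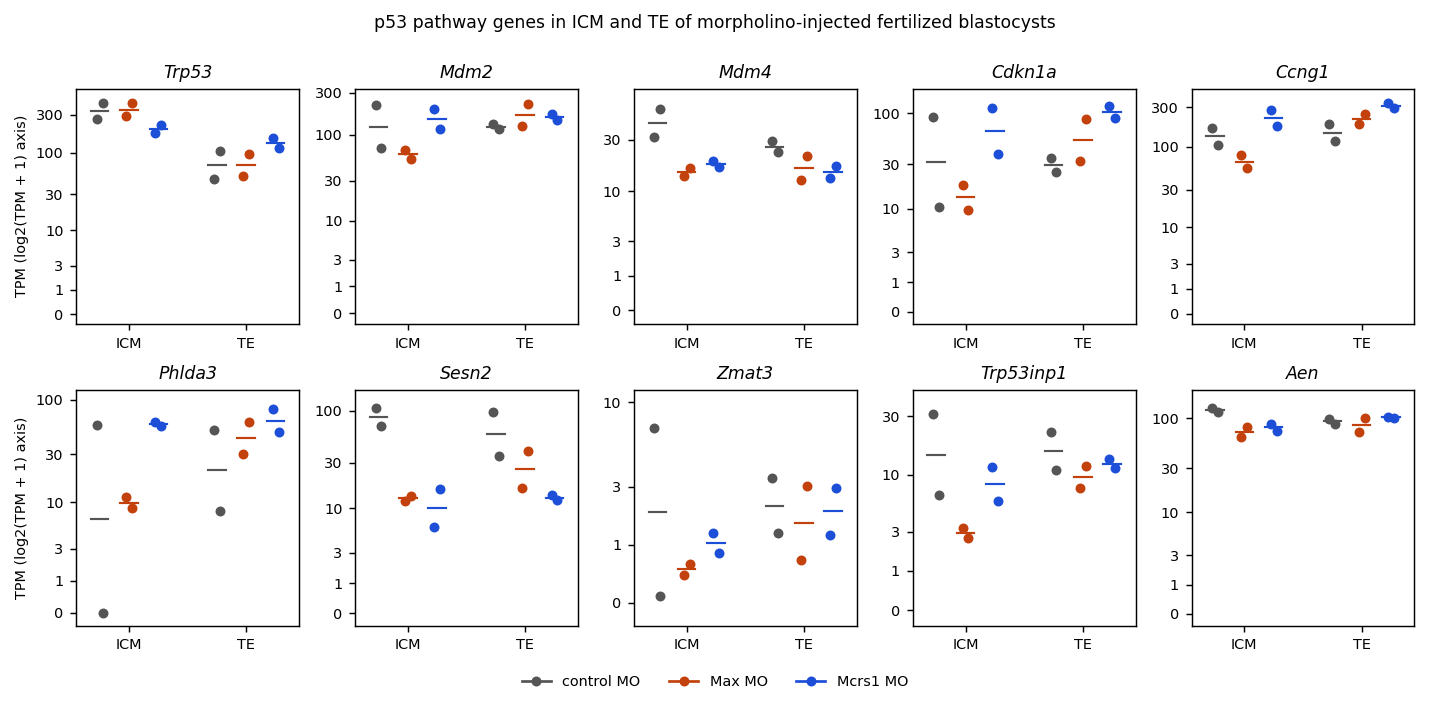
TPM of each member (y axis, on a log2(TPM + 1) scale) in fertilized ICM and TE libraries after each of the 3 morpholinos; points are the 2 libraries of a group and the line is their mean on the plotted scale. Sesn2 is at 106 and 70.5 TPM in control MO ICM and between 6.14 and 16.1 TPM in the ICM libraries of both other morpholinos, while the 2 control ICM libraries of Cdkn1a and Phlda3 lie far apart.

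The 2 control MO ICM libraries held Trp53 at 262 and 420.4 TPM, against 286 and 416 TPM with Max MO and 177 and 224 TPM with Mcrs1 MO. The Max MO values lay inside the control range and the Mcrs1 MO values below it, with log2 fold changes of 0.06 (95% interval -0.86 to 0.98, adjusted p = 0.936) and -0.73 (95% interval -1.65 to 0.19, adjusted p = 0.271). In TE, Trp53 was at 47.4 and 106 TPM with control MO, 51.6 and 97.8 TPM with Max MO and 153 and 114 TPM with Mcrs1 MO. Both Mcrs1 MO values were above both controls there, but the change of 0.89 (95% interval -0.03 to 1.81, adjusted p = 0.216) did not pass the test, and with Max MO it was 0.00 (adjusted p = 1.00). The Trp53 mRNA was higher in each of the 6 ICM libraries than in each of the 6 TE libraries of this experiment, whichever morpholino had been injected. This difference was not tested, and the share of all genes that separate in the same way was not taken.

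Mdm2, the p53 target that feeds back on p53, was at 216 and 71.0 TPM in control MO ICM, 66.8 and 53.6 TPM with Max MO and 196 and 118 TPM with Mcrs1 MO. Both Max MO values lay below both controls, and the log2 fold change of -1.04 (SE 0.46, adjusted p = 0.114) was not called. In TE it was at 131 and 117 TPM, 126 and 222 TPM and 174 and 149 TPM in the same order of groups, with 1 Max MO value between the controls and the other above them, and both Mcrs1 MO values above both controls. Mdm4, which restrains p53 without degrading it, was at 31.9 and 56.3 TPM in control MO ICM, 14.0 and 16.6 TPM with Max MO and 18.9 and 16.7 TPM with Mcrs1 MO. All 4 knockdown libraries were below both controls. The fall was called with Max MO, at -1.42 (SE 0.40, adjusted p = 0.0234), and not with Mcrs1 MO, at -1.21 (SE 0.40, adjusted p = 0.0701). The TE values of Mdm4 were 29.3 and 22.9 TPM with control MO, 12.6 and 21.5 TPM with Max MO and 13.3 and 17.2 TPM with Mcrs1 MO, again all below both controls and not called.

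Cdkn1a encodes p21, the cyclin-dependent kinase inhibitor through which p53 stops the cell cycle. In ICM it was at 91.5 and 10.5 TPM in control MO replicates 1 and 2, 18.1 and 9.76 TPM with Max MO and 112 and 38.6 TPM with Mcrs1 MO. The 2 controls differed from each other more than the groups did, and neither change passed the test, with -1.18 (95% interval -3.05 to 0.68, adjusted p = 0.326) for Max MO and 1.04 (95% interval -0.83 to 2.90, adjusted p = 0.446) for Mcrs1 MO. In TE, Cdkn1a was at 34.3 and 24.6 TPM with control MO, 32.0 and 88.1 TPM with Max MO and 118 and 89.9 TPM with Mcrs1 MO. Both Mcrs1 MO values lay above both controls. The TE changes of 0.85 (95% interval -1.01 to 2.72, adjusted p = 0.628) with Max MO and 1.79 (95% interval -0.08 to 3.66, adjusted p = 0.218) with Mcrs1 MO did not pass the test.

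Ccng1, cyclin G1, is a p53 target that recruits the phosphatase PP2A to Mdm2. It was at 171 and 105 TPM in control MO ICM, 79.5 and 55.1 TPM with Max MO and 274 and 177 TPM with Mcrs1 MO. The 3 groups did not overlap, with Max MO lowest and Mcrs1 MO highest. Of all genes, 33.2% had both Max MO values below both Mcrs1 MO values in ICM. The fall with Max MO was called at a log2 fold change of -1.01 (SE 0.33, adjusted p = 0.0447), just past 2-fold, and the difference between the morpholinos was called at -1.72 (SE 0.33, adjusted p = 0.0367). In TE, Ccng1 was at 186 and 116 TPM with control MO, 186 and 247 TPM with Max MO and 334 and 291 TPM with Mcrs1 MO. The Mcrs1 MO libraries were above both controls, with 1.08 (SE 0.33, adjusted p = 0.0778), which missed the threshold.

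Sesn2, a sestrin that restrains mTORC1 and is also raised by stress pathways other than p53, had the largest called change among the members with each morpholino in ICM. It was at 106 and 70.5 TPM in control MO ICM, 12 and 13.6 TPM with Max MO and 6.14 and 16.1 TPM with Mcrs1 MO. All 4 knockdown libraries were far below both controls, with log2 fold changes of -2.66 (SE 0.58, adjusted p = 0.00793) and -2.98 (SE 0.58, adjusted p = 0.0124). In TE it was at 97.9 and 34.8 TPM, 16.6 and 39.6 TPM and 13.8 and 12.1 TPM in the same order. The Max MO values overlapped the controls there and the Mcrs1 MO values did not, at -2.09 (SE 0.58, adjusted p = 0.0567), not called. Across the alternatives the Max MO ICM change of Sesn2 was called in all 21, with adjusted p between 0.00661 and 0.0475, and its Mcrs1 MO ICM change in 19 of 21, with adjusted p between 0.0106 and 0.106.

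Trp53inp1, a stress protein of autophagy and cell death, was at 31.4 and 6.63 TPM in control MO ICM, 3.26 and 2.58 TPM with Max MO and 11.7 and 5.85 TPM with Mcrs1 MO. The Max MO values were below both controls and the change of -2.01 (SE 0.67, adjusted p = 0.0462) was called, while the Mcrs1 MO values overlapped the controls. Phlda3, which opposes Akt at the membrane, was at 57.0 TPM in control MO ICM replicate 1 and listed at 0 in replicate 2, against 11.3 and 8.63 TPM with Max MO and 61.3 and 55.9 TPM with Mcrs1 MO. In TE it was at 51.6 and 8.02 TPM, 29.8 and 61.0 TPM and 80.9 and 48.6 TPM in the order control MO, Max MO and Mcrs1 MO. No Phlda3 change was called. Aen, a nuclease of the apoptotic response, was at 129.6 and 117 TPM in control MO ICM, 64.2 and 81.9 TPM with Max MO and 87.0 and 74.9 TPM with Mcrs1 MO. Its change with Max MO, -0.76 (SE 0.24, adjusted p = 0.0366), had an adjusted p under 0.05 but was less than 2-fold, and with Mcrs1 MO it was -0.61 (SE 0.24, adjusted p = 0.117). The RNA-binding zinc finger gene Zmat3 had the lowest median of the members in each fertilized group. It was at 7.14 and 0.0798 TPM in control MO ICM and 3.45 and 1.29 TPM in control MO TE. In the 8 knockdown libraries of both lineages it was between 0.398 and 3.01 TPM. In TE, Trp53inp1 was at 22.6 and 11.1 TPM with control MO, 7.71 and 11.7 TPM with Max MO and 13.5 and 11.3 TPM with Mcrs1 MO, and Aen was at 99.3 and 88.4, 73.0 and 102 and 103 and 102 TPM in the same order. The groups overlapped for Trp53inp1, both Mcrs1 MO values of Aen were above both controls, and neither gene was called.

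**Figure D3:**
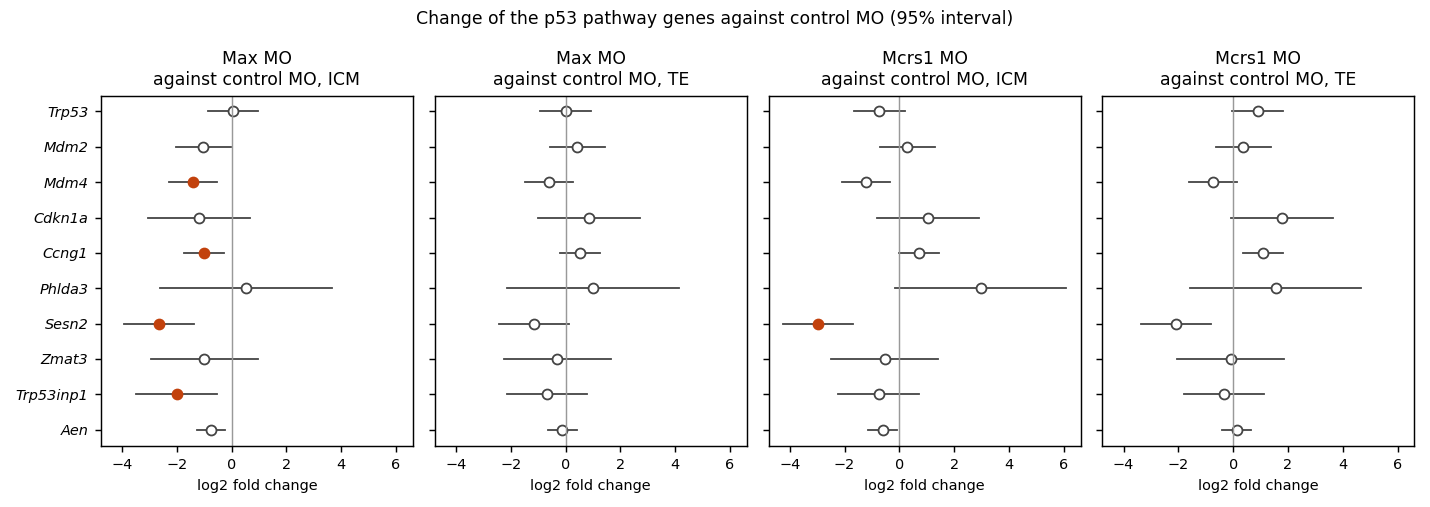
Log2 fold change of each member (x axis, on the log2(TPM + 1) scale) against control MO in 4 panels, for Max MO and Mcrs1 MO in ICM and TE; bars are limma's 95% intervals and filled points are called. The filled points are Mdm4, Ccng1, Sesn2 and Trp53inp1 in Max MO ICM and Sesn2 in Mcrs1 MO ICM, all lower, and no point is filled in TE.

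Apart from that of Sesn2 with Max MO, the ICM calls depended on single libraries. Over all genes the share called moved too when a control MO ICM library was left out, as given below with the other targets. The counts that follow are thus not a measure of the members alone. With Max MO, 3 members were called without control MO ICM replicate 1, the library with 16259.9 TPM of TE markers (Mdm4 and Sesn2 lower, Phlda3 higher), and 7 were called without replicate 2, all lower (Mdm2, Cdkn1a, Ccng1, Phlda3, Sesn2, Zmat3 and Trp53inp1). Without either Max MO ICM library 1 was called, Sesn2, and without any 1 of the 4 TE libraries of Max MO and Mcrs1 MO 2 were, Mdm4 and Sesn2. Of 21 alternative analyses, the call held in 16 for Mdm4, 10 for Ccng1 and 7 for Trp53inp1. With Mcrs1 MO the number called in ICM was 4 without control MO ICM replicate 1 (Mdm4 and Sesn2 lower, Cdkn1a and Phlda3 higher), 1 without replicate 2, and 0 without Mcrs1 MO ICM replicate 1. The direction of the Cdkn1a change in ICM turned on which control library was used, since its log2 fold change ran from -2.69 to 0.32 with Max MO and from -0.47 to 2.54 with Mcrs1 MO when single libraries were left out. In Mcrs1 MO TE the number called was 3 (Cdkn1a and Ccng1 higher, Sesn2 lower) in a fit of the TE libraries alone, where 14.3% of all genes were called, and 3 likewise without either of the control MO ICM libraries, which enter that comparison only through the estimate of spread. The 2 control MO ICM libraries differ in TE markers and in these members together. The knockdown ICM libraries differ from both in primitive endoderm markers and in the sum of the ICM markers. The part of any of these marker sets in the members' changes was not tested.

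The difference between the lineages was tested as an interaction. No gene passed for either morpholino (0% and 0% of all genes called), with 1473 and 972 of 11219 genes at an unadjusted p under 0.05. Among the members, Mdm2 and Ccng1 had an unadjusted p under 0.05 for Max MO, with ICM minus TE differences of -1.46 (SE 0.65, adjusted p = 0.372) and -1.55 (SE 0.47, adjusted p = 0.241), and Trp53 did for Mcrs1 MO, with -1.62 (SE 0.59, adjusted p = 0.498). Members called in ICM and not in TE are thus not shown to differ between the lineages. Between the morpholinos, 1 member was called in ICM, Ccng1 as given above (a call held in 10 of 21 alternatives and lost without any 1 of the Max MO or Mcrs1 MO libraries), where 0.312% of all genes were called higher and 1.5% lower (1.81% in either direction). Cdkn1a and Mdm2 were also at lower levels with Max MO than with Mcrs1 MO in ICM, with -2.22 (SE 0.85, adjusted p = 0.182) and -1.33 (SE 0.46, adjusted p = 0.148), not called. In TE none of the members was called between the morpholinos (0 at an unadjusted p under 0.05), nor were more than 3 of all genes (0.0267%).

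Of 35 other known targets of p53, 33 could be tested. In Max MO ICM 3 were called higher and 5 lower, with a median log2 fold change of -0.68 beside -0.21 for all genes. The share called, 24.2% of the targets, was near that of all genes, 23.7%. It was 3 higher and 4 lower without control MO ICM replicate 1, where 29.9% of all genes were called, and 4 higher and 7 lower without replicate 2, where 29.5% were. Those with the largest changes were Slc19a2, a thiamine transporter (-2.87), the etoposide-induced gene Ei24 (-2.77), the polo-like kinase Plk2 (-2.77), all lower, and Dcxr, a xylulose reductase, higher (2.46). Of 21 alternatives the call held in all 21 for Dcxr, 20 for Plk2, 19 for Ei24 and 17 for Slc19a2, whose log2 fold change ran from -3.96 to -1.78 without single libraries and was not called without control MO ICM replicate 1 or Max MO ICM replicate 1. In Max MO TE Rps27l was called higher and Fdxr, the ferredoxin reductase of mitochondria, lower (-1.94), where 2.5% of all genes were called. The Fdxr call held in 7 of 21 alternatives and was lost without any 1 of the 4 libraries compared, with log2 fold changes from -2.44 to -1.44 and adjusted p up to 0.276. In Mcrs1 MO ICM 2 were higher (Rps27l and the apoptosis inhibitor Triap1, 1.41) and 1 lower (Ei24, -2.41), where 10.1% of all genes were called. The Triap1 call held in 20 of 21 alternatives and the Ei24 call in 8, lost without any 1 of the 4 ICM libraries compared (adjusted p up to 0.187). Without control MO ICM replicate 1 the counts were 7 higher and 1 lower (22.1% of all genes called), and without replicate 2 they were 3 higher and none lower (11.9%). In Mcrs1 MO TE 3 were higher (Rps27l, the spindle protein Psrc1 at 1.75 and the death effector Bax at 1.00) and none lower, where 5.08% of all genes were called. At an unadjusted p under 0.05 there were 11 of the 33 (33.3%), beside 24.9% of all genes. The calls of Psrc1 and Bax held in 17 and 15 of 21 alternatives, and both were lost without any 1 of the 4 TE libraries compared. The median of these targets in Mcrs1 MO TE was 0.25, beside -0.24 for all genes.

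Rps27l, a relative of the ribosomal protein S27 and a p53 target, was the one target called in all 4 comparisons. It was at 201 and 241 TPM in control MO ICM, 897 and 648 TPM with Max MO and 1119 and 1003 TPM with Mcrs1 MO. In TE it was at 267 and 324 TPM, 899 and 843 TPM and 1375 and 1069 TPM in the same order. All 8 knockdown libraries were above all 4 controls, with log2 fold changes of 1.79 (SE 0.21, adjusted p = 7.25e-04) and 1.56 (SE 0.21, adjusted p = 0.0167) with Max MO and 2.26 (SE 0.21, adjusted p = 0.00193) and 2.04 (SE 0.21, adjusted p = 0.00259) with Mcrs1 MO. Of 21 alternatives each, the call held in all 21 in Max MO ICM and Mcrs1 MO TE, 17 in Max MO TE and 20 in Mcrs1 MO ICM. The tables do not show how reads shared with its paralog Rps27 were assigned. The share of TPM on annotated genes also moved with the groups, from 85.5% to 90.3% in the control libraries and from 93.6% to 94.4% in the knockdown libraries, and Rps27l was called in all 4 comparisons also with TPM rescaled over annotated genes.

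Of 16 regulators of p53 other than the members, 12 could be tested, and those called lower in Max MO ICM were the damage mediator Trp53bp1 (-1.83), the kinase Atr (-1.71), the deubiquitinase Usp7 (-1.37) and the checkpoint kinase Chek1 (-1.19). The median of the regulators there was -1.27, beside -0.21 for all genes, and 33.3% of them were called, beside 23.7% of all genes. Usp7 was called in all 21 alternatives, Atr in 17 and Trp53bp1 and Chek1 in 14 each. Without either Max MO ICM library Atr, Trp53bp1 and Chek1 were not called. Trp53bp1 ran from -2.29 to -1.37 and was not called without control MO ICM replicate 1, and Chek1 ran from -1.59 to -0.80 and was not called without replicate 2. The number of regulators called was 6, all lower, without replicate 1, and 1 higher and 3 lower without replicate 2. None was called in the other comparisons with control MO (1, lower, in Mcrs1 MO ICM without control MO ICM replicate 1). Of 15 cell cycle genes that p53 lowers through p21 and the DREAM complex, all tested, Aurkb (1.23), Birc5 (1.21) and Cdc20 (1.11) were higher and Bub1 (-1.14) lower in Max MO ICM. The share called, 26.7% of that list, was near that of all genes, 23.7%. The calls of Aurkb and Birc5 held in all 21 alternatives and that of Cdc20 in 17, while that of Bub1 held in 6, with log2 fold changes from -1.67 to -0.62 without single libraries and adjusted p up to 0.249. Without control MO ICM replicate 1, 2 were higher and 1 lower (Cdc20, at 0.94, was then under 2-fold), and without replicate 2, 6 were higher and none lower. Birc5 and Cdc20 were higher in Mcrs1 MO ICM (1.38 and 1.21), and Cdc20 was higher in the TE of both morpholinos (1.23 with Max MO and 1.55 with Mcrs1 MO). The share of that list called was 13.3% in Mcrs1 MO ICM, beside 10.1% of all genes. It was 6.67% in the TE of each morpholino, beside 2.5% of all genes with Max MO and 5.08% with Mcrs1 MO. The Cdc20 call in Max MO TE held in 16 of 21 alternatives and was lost without any 1 of the 4 libraries compared. No gene of that list was called lower in the comparisons other than Max MO ICM with all libraries. In Mcrs1 MO ICM, 2 were higher and 1 lower without control MO ICM replicate 1 and 3 higher and none lower without replicate 2. The shares of all genes called without single control libraries are those given above for the other targets.

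Over the SCNT stages the members followed different courses, and log2 fold changes between successive stages are given with their SE and limma's adjusted p. Mdm4 was highest up to L2C and fell after it, Trp53inp1 had higher medians up to 4C than after it, and the targets Cdkn1a, Ccng1, Phlda3 and Aen were low at 6 hpa and 14 hpa and reached their highest medians at the morula stage or in TE. The donor CCs held Cdkn1a between 63.5 and 121 TPM with a median of 112, Trp53 between 27.0 and 56.7 TPM with a median of 44.9 and Ccng1 between 32.4 and 47.8 TPM with a median of 33.8, and the other members at levels between 0.340 and 43.4 TPM. No test was made between CCs and embryos, which differ in cell type.

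By step, no member was called by limma from 6 hpa to 14 hpa (1 at an unadjusted p under 0.05, Mdm2), where, over 11867 genes tested, 6.14% of all genes were called higher and 4.94% lower (11.1% in either direction). From 14 hpa to E2C 2 members rose, and 2.78% of all genes were called higher and 3.05% lower (5.83% in either direction). From E2C to L2C 2 rose, and 23.7% of all genes were called higher and 11.2% lower (34.9% in either direction). From L2C to 4C 3 rose and 1 fell, and 11.8% of all genes were called higher and 26.6% lower (38.4% in either direction). From 4C to 8C 2 fell, and 11.5% of all genes were called higher and 8.23% lower (19.8% in either direction). From 8C to morula 4 rose and none fell, where 8.74% of all genes were called higher and 3.48% lower (12.2% in either direction). The median log2 fold change at that step was 0.88 for the members and 0.20 for all genes. From morula to ICM 4 fell, where 8.96% of all genes were called higher and 15% lower (24% in either direction), and from morula to TE 2 fell, where 11% of all genes were called higher and 10.8% lower (21.8% in either direction). Between ICM and TE 1 was higher and 1 lower in ICM, where 1.47% of all genes were called higher and 3.87% lower (5.34% in either direction). At L2C, 4C, 8C and TE the share of the 10 members called was near or below that of all genes. Stages did not overlap, with the later higher, for 1.85% of all genes at E2C and 12.9% at L2C (1 member each). It was 6.15% at 4C (1 member) and 7.23% at the morula stage (3 members). With the later lower, it was 6.48% at 14 hpa, 14.3% at 4C, 4.75% at 8C and 7.39% in TE (1 member each).

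**Figure D4:**
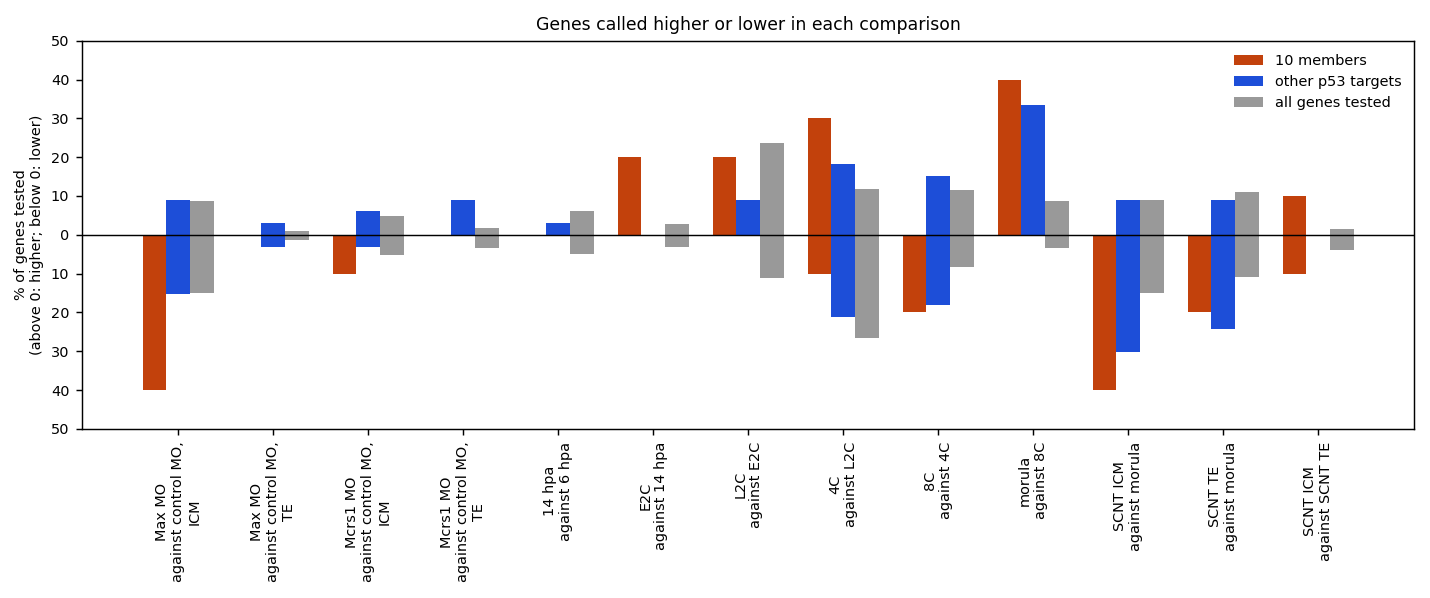
Percent of the 10 members, of the other p53 targets that could be tested and of all genes tested (y axis) called higher (above 0) or lower (below 0) in each comparison with control MO and at each SCNT step. At the step from 8C to morula 4 of 10 members and 11 of 33 other targets are called higher and none lower, beside 8.74% of all genes called higher.

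**Figure D5:**
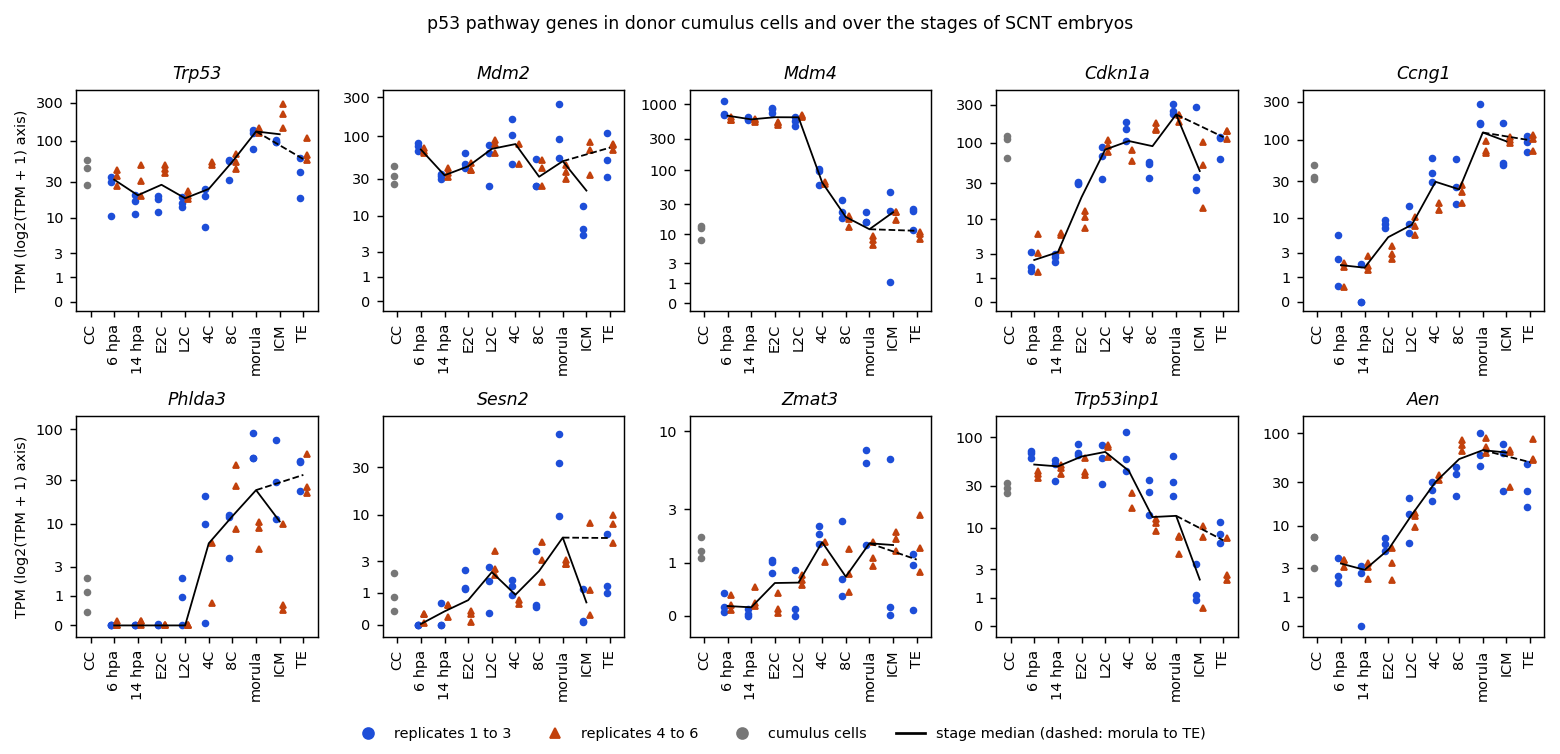
TPM of each member (y axis, on a log2(TPM + 1) scale) in CCs and over the 9 SCNT stages (x axis), with 1 point per library (circles for replicates 1 to 3, triangles for replicates 4 to 6) and a line that joins the stage medians, dashed from the morula to TE. Mdm4 runs from a median of 669 TPM at 6 hpa to 12.4 TPM at the morula stage, while Cdkn1a runs from 2.42 to 227 TPM.

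Trp53 was present at all 9 stages. It was between 10.6 and 42.3 TPM with a median of 32.0 at 6 hpa, and between 11.3 and 49.5 TPM with a median of 20.1 at 14 hpa. At E2C it was between 12.2 and 49.2 TPM with a median of 29.1, and at L2C between 13.9 and 22.8 TPM with a median of 18.4, and no step among these was called. At 4C its 5 libraries were at 7.46, 24.3, 19.4, 49.5 and 53.6 TPM, and at 8C it was between 31.8 and 68.7 TPM with a median of 54.3. It rose from 8C to the morula stage, where it was between 77.8 and 143 TPM with a median of 130.3, with a log2 fold change of 1.25 (SE 0.39, adjusted p = 0.0231) and no overlap between the stages. In the blastocyst it was between 94.7 and 289 TPM with a median of 122 in the ICM and between 18.5 and 107 TPM with a median of 58.5 in the TE. The fall from morula to TE was called, at -1.22 (SE 0.39, adjusted p = 0.0152). The difference between ICM and TE was called too, at 1.45 (SE 0.39, adjusted p = 0.0163), with 1 TE library inside the ICM range. The ICM to TE difference was 1.42 in replicates 1 to 3 and 1.48 in replicates 4 to 6, and the fall from morula to TE -1.58 in replicates 1 to 3 and -0.86 in replicates 4 to 6.

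The fall of Mdm4 from L2C to 4C was the largest called at a single step among the members. It stayed between 461 and 1103 TPM in the 24 libraries from 6 hpa to L2C, against 8.02 to 13.6 TPM in the donor CCs. At 4C its 5 libraries were at 106, 95.7, 59.7, 65.3 and 61.3 TPM, all below every L2C library, with a log2 fold change of -2.98 (SE 0.39, adjusted p = 1.14e-08). At 8C it was between 13.2 and 34.6 TPM with a median of 19.0, again with no overlap and a change of -1.85 (SE 0.39, adjusted p = 4.21e-04), and at the morula stage between 6.43 and 22.8 TPM with a median of 12.4. The 24 libraries with high Mdm4 also had the highest sums of 4 oocyte markers (Gdf9, Bmp15, Zp3 and Oosp1), at 3987 to 7882 TPM at 6 hpa, 581 to 2648 TPM at L2C, 34.7 to 96.3 TPM at 4C and 1.64 to 9.65 TPM at the morula stage. The part of oocyte RNA in these levels was not tested.

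Mdm2 was between 62.7 and 81.9 TPM with a median of 68.7 at 6 hpa and between 29.8 and 41.0 TPM with a median of 33.0 at 14 hpa, with no overlap between the 2 stages but a change of -1.04 (SE 0.45, adjusted p = 0.130) that was not called. It was then between 38.4 and 62.1 TPM with a median of 42.6 at E2C, and between 24.2 and 88.8 TPM with a median of 70.3 at L2C. It spanned 45.2 to 161 TPM at 4C and was between 23.9 and 52.0 TPM with a median of 32.6 at 8C. At the morula stage it was between 29.6 and 247 TPM with a median of 49.5, with replicate 3 far above the other 5 libraries. In the ICM it was between 5.38 and 85.5 TPM with a median of 23.3 and in the TE between 31.1 and 109.7 TPM with a median of 72.7. Mdm2 fell from morula to ICM (-1.48, SE 0.45, adjusted p = 0.00992) and was lower in ICM than in TE (-1.53, SE 0.45, adjusted p = 0.0304). Both calls came from replicates 1 to 3, the ICM libraries with few genes. The change from morula to ICM was -3.62 in replicates 1 to 3 and 0.66 in replicates 4 to 6, and the difference of ICM from TE -2.69 in replicates 1 to 3 and -0.37 in replicates 4 to 6.

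Cdkn1a was between 1.38 and 6.05 TPM with a median of 2.42 at 6 hpa and between 2.15 and 6.35 TPM with a median of 3.21 at 14 hpa, far below its level in the donor CCs. It rose at E2C to between 7.57 and 31.0 TPM with a median of 21.4, with no overlap with 14 hpa (2.01, SE 0.45, adjusted p = 0.00197). It rose again at L2C to between 34.6 and 109.5 TPM with a median of 81.7, also with no overlap (1.99, SE 0.45, adjusted p = 2.94e-04). At E2C replicates 1 to 3 were at 30.1, 29.7 and 31.0 TPM and replicates 4 to 6 at 13.0, 7.57 and 10.7 TPM. The first rise was thus 3.13 in replicates 1 to 3 and 0.89 in replicates 4 to 6, and the second 0.94 in replicates 1 to 3 and 3.04 in replicates 4 to 6. No step from L2C to 8C was called, and it was at 105, 183, 150.0, 59.1 and 81.6 TPM at 4C and between 34.9 and 179 TPM with a median of 99.9 at 8C. At the morula stage every library was above every 8C library, between 180.3 and 312 TPM with a median of 227 (1.43, SE 0.45, adjusted p = 0.0241), and this rise was 2.46 in replicates 1 to 3 and 0.41 in replicates 4 to 6. In the ICM it fell to between 14.1 and 282 TPM with a median of 43.9 (-2.15, SE 0.45, adjusted p = 2.03e-04), with 1 library inside the morula range, and with -2.04 in replicates 1 to 3 and -2.26 in replicates 4 to 6. In the TE it was between 61.9 and 142 TPM with a median of 118 (-1.06, SE 0.45, adjusted p = 0.0747, not called).

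Ccng1 moved with Cdkn1a at 2 of these steps. It was listed at 0 in 2 of 6 libraries at 14 hpa and reached 2.69 TPM there, and rose at E2C to between 2.32 and 9.26 TPM with a median of 5.49 (1.55, SE 0.40, adjusted p = 0.00951), with 2.67 in replicates 1 to 3 and 0.43 in replicates 4 to 6. At L2C it was between 5.73 and 14.1 TPM with a median of 7.98, and at 4C its libraries were at 38.5, 59.7, 29.5, 15.7 and 12.6 TPM (1.58, SE 0.42, adjusted p = 0.00192 against L2C). From 8C, between 15.0 and 57.0 TPM with a median of 23.7, it rose to between 67.5 and 281 TPM with a median of 127 at the morula stage with no overlap, a log2 fold change of 2.30 (SE 0.40, adjusted p = 5.05e-05). This rise was called in each set of replicates, with 2.75 in replicates 1 to 3 and 1.84 in replicates 4 to 6. The ICM (48.5 to 161 TPM) and the TE (70.3 to 114 TPM) overlapped the morula libraries, and no change was called.

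Phlda3 was listed at 0 in 17 of the 24 libraries from 6 hpa to L2C and did not exceed 2.02 TPM in them. At 4C its libraries were at 0.0520, 9.92, 19.8, 0.681 and 5.91 TPM, and the change from L2C was called (1.86, SE 0.69, adjusted p = 0.0263), though 2 of the 5 lay inside the L2C range. It was between 3.89 and 42.6 TPM with a median of 12.1 at 8C, and between 4.98 and 92.0 TPM with a median of 30.3 at the morula stage. In the ICM it was between 0.450 and 78.4 TPM with a median of 10.6, and in the TE between 21.4 and 55.8 TPM with a median of 35.2, with no later step called. Aen was between 2.01 and 7.12 TPM with a median of 5.18 at E2C and rose to between 6.29 and 20.5 TPM with a median of 13.3 at L2C (1.24, SE 0.37, adjusted p = 0.00559) and to 25.1, 30.3, 18.9, 36.3 and 32.2 TPM in the 4C libraries (1.14, SE 0.39, adjusted p = 0.0143). Its highest median was 66.4 TPM at the morula stage, and no step after 4C was called.

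Sesn2 stayed at or below 3.93 TPM up to 4C. At the morula stage replicates 1 to 3 were at 9.80, 62.6 and 32.8 TPM and replicates 4 to 6 at 2.78, 2.72 and 3.12 TPM, against between 0.459 and 5.02 TPM with a median of 2.30 at 8C. The rise (1.82, SE 0.51, adjusted p = 0.0123) came from replicates 1 to 3, with 3.67 in replicates 1 to 3 and -0.04 in replicates 4 to 6. It fell to between 0.0501 and 8.20 TPM with a median of 0.682 in the ICM (-2.41, SE 0.51, adjusted p = 3.02e-04), with -4.40 in replicates 1 to 3 and -0.42 in replicates 4 to 6. In the TE it was between 0.981 and 9.98 TPM with a median of 5.64. Trp53inp1 was between 31.1 and 82.6 TPM with a median of 70.4 at L2C and 43.6, 114, 58.5, 16.9 and 25.0 TPM at 4C, and fell to between 9.29 and 34.8 TPM with a median of 13.4 at 8C (-1.32, SE 0.49, adjusted p = 0.0476). From between 4.82 and 63.3 TPM with a median of 15.6 at the morula stage it fell in both lineages, to between 0.561 and 10.6 TPM with a median of 2.35 in the ICM (-2.17, SE 0.47, adjusted p = 3.47e-04) and between 2.06 and 11.7 TPM with a median of 7.14 in the TE (-1.36, SE 0.47, adjusted p = 0.0266). The fall to the ICM was -3.83 in replicates 1 to 3 and -0.52 in replicates 4 to 6. Zmat3 had stage medians between 0.118 and 1.61 TPM, and no step of it was called.

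Of the other p53 targets, 33 could be tested at the SCNT steps. There were 3 higher and none lower from E2C to L2C (Sesn1 2.04 and the fructose bisphosphatase Tigar 1.69 with the largest changes), 6 higher and 7 lower from L2C to 4C (Dcxr 3.23, Bax 3.06) and 5 higher and 6 lower from 4C to 8C (Gadd45a -2.56, Rrm2b -2.04). The share of the targets called at these steps was 9.09%, 39.4% and 33.3%, beside 34.9%, 38.4% and 19.8% of all genes. From 8C to morula 11 rose and none fell, 33.3% of the targets beside 12.2% of all genes. The median log2 fold change was 1.09, beside 0.20 for all genes. The largest changes there were those of Pmaip1, which encodes the death effector Noxa (3.36, SE 0.79, adjusted p = 0.00225), and of Ephx1, an epoxide hydrolase (2.62, SE 0.56, adjusted p = 6.95e-04). Ephx1 went from between 3.84 and 24.9 TPM with a median of 7.57 at 8C to between 41.9 and 81.6 TPM with a median of 61.7 with no overlap, while Pmaip1, from between 0.0318 and 6.17 TPM with a median of 0.432 to between 0.0911 and 134 TPM with a median of 48.6, overlapped. From morula to ICM 3 rose and 10 fell (the receptor Eda2r -4.04 and the kinase Plk3 -3.93 with the largest changes), and from morula to TE 3 rose and 8 fell (the lipid transfer protein gene Pltp 4.08, Plk3 -3.40). The share called was 39.4% from morula to ICM and 33.3% from morula to TE, beside 24% and 21.8% of all genes. At 6 hpa to 14 hpa 1 rose (Sulf2 1.31), which is 3.03% beside 11.1% of all genes. From 14 hpa to E2C, as between ICM and TE, none was called.

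Among the regulators, of which 14 could be tested, the L2C stage brought 4 higher and 2 lower, with the checkpoint kinase Chek2 (2.36) and the ribosomal protein Rpl5, which binds Mdm2 (2.15), leading. The 4C stage brought 3 higher and 3 lower (Chek1 -2.47, Rpl11 2.25) and the 8C stage 2 higher (Rpl5 1.30, Npm1 1.23). None was called from 8C to morula. From morula to ICM 1 was higher, Usp7 (1.25), and 3 were lower, Npm1 (-1.96), Rpl11 (-1.29) and Rpl5 (-1.03). From morula to TE 1 was higher, Usp7 (1.12), and 2 were lower, Npm1 (-2.15) and Rpl11 (-1.14). Of the 15 cell cycle genes 1 was called from 8C to morula, Ccnb1, lower (-1.29), and in the blastocyst 1 was higher and 3 lower in the ICM (Mybl2 1.42 higher, Ccna2 -2.51 and Cdk1 -1.72 with the largest falls) and 2 lower in the TE (Ccna2 -1.92 and Cdk1 -1.24). At the earlier steps 2 rose at 14 hpa (Cdk1 2.53, Birc5 1.17), 1 fell at E2C (Kif23 -1.29), 4 rose and 2 fell at L2C (Cdc25c 3.98, Cdk1 2.32), 1 rose and 3 fell at 4C (E2f1 -2.67, Cdc25c -1.68) and 5 rose at 8C (Aurka 2.41, Cdc20 1.77). Between ICM and TE, the regulator Crebbp (-1.05) was lower and the cell cycle gene Mybl2 (2.09) higher in ICM. The share of the regulators called was 42.9% at L2C and at 4C, 14.3% at 8C, 28.6% in ICM and 21.4% in TE. That of the cell cycle genes was 40% at L2C, 26.7% at 4C, 33.3% at 8C, 26.7% in ICM and 13.3% in TE. Over all genes it was 34.9%, 38.4%, 19.8%, 24% and 21.8% at these steps, in the same order.

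The genes whose 9 stage means were most like those of Trp53, among 11866 other genes tested, were Tmem17 (Pearson's r = 0.986), Plod1 (0.986) and Spr (0.977), and those most like Cdkn1a were Hist1h1b (0.985), Mfsd11 (0.984) and Ppp1r2 (0.982). These likenesses are over 9 points that share libraries and depth, and are given as a description.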

How the data were processed

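Polyadenylated RNA was sequenced by Smart-seq2 from 10 blastomeres per library, and 68 gene tables were used. The authors trimmed reads with cutadapt 1.16 (per the submitters' processing notes), aligned them to mm10 with HISAT2 and assembled transcripts with StringTie, whose versions are not given in the sources used here. Each deposited table gives coverage (a signal of mean read depth per base), FPKM and TPM per gene, and the deposited TPM were used as a signal whose sum to the fixed total includes unannotated assembled loci. The tables hold no counts, so the count model of the study could not be run. TPM of rows with the same symbol were summed. The depth was taken as coverage over FPKM, and no counting intervals were made.

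Values were analysed as log2(TPM + 1), with genes at a mean of 1 TPM or more, by limma 3.58.1 in R 4.3.3 (lmFit and eBayes with a trend), with 1 fit of 12 fertilized libraries (11219 genes) and 1 of 53 SCNT libraries (11867 genes), two-sided, and Benjamini-Hochberg adjustment over all genes of a fit. A gene was called at an adjusted p under 0.05 and at least 2-fold. On simulated data, 33% of 200 genes with a log2 change of 2 were recovered in the design of the fertilized libraries (3 false among 69 calls) and 71% in that of the SCNT libraries (10 false among 152). The simulated noise was normal, independent between genes and of 1 spread per gene over all groups. The 2 control MO ICM libraries differ in TE markers, so these rates cannot be carried over to the ICM comparisons. All 10 members are described, with Max and Mcrs1. Of the lists of other targets, regulators and cell cycle genes, the called genes with the largest change were named, up to 4 per morpholino comparison and 2 per SCNT step, and beside them Rps27l in every morpholino comparison. For Trp53 and Cdkn1a the 3 genes of the most alike course were named. The members and lists were chosen with earlier results of these data known. The limit of 1 mismatch in the promoter search, coverage in place of TPM, Ephx1 and Pmaip1 levels, Sox17 and Gata4 among the markers, and Usp7, Rpl5 and Mybl2 after the morula stage were chosen after values had been seen.

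Replicate numbers were checked for pairing by correlating deviations from group means. For 14 hpa with 6 hpa (r between 0.142 and 0.390 over 6 pairs) and SCNT ICM with TE (between 0.131 and 0.300) every pair was above 0.1, and the block changed no count of members there, 0 and 2. The labels do not say that same-numbered libraries share embryos. Alternatives were the pseudocount, the filter on low values, rescaling over annotated genes, quantile normalization, the largest row of a gene, the block, single lineages, replicates 1 to 3 or 4 to 6 alone, CCs as a further group, and leaving out single libraries. Reads were sequenced at 2 sites per the labels, which do not say which library went where, so no values within a site could be made. No libraries were identical. Python 3.11.15, numpy 2.4.6, pandas 2.3.3 and matplotlib 3.10.9 were used.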

Additional observations from a re-analysis of the deposited data

Results flagged for a closer look

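Dixon's ratio, the gap of the highest or lowest library to its nearest neighbour over the range of the group, was past its 95% critical value in 13 of 90 combinations of member and group. About 4.5 (1 in 20) would be past it if values were normal and independent. The ratio was taken on TPM, some of them at or near 0, and the members share libraries. The 13 therefore cannot be weighed against 4.5, and are listed as a description. In the SCNT ICM, replicate 2 stood high in Cdkn1a at 282 TPM, with the other 5 between 14.1 and 103 TPM, and in Phlda3 at 78.4 TPM, with the other 5 between 0.450 and 28.3 TPM. Also in the ICM, Sesn2 replicate 6 was at 8.20 TPM, with the other 5 between 0.0501 and 1.16 TPM, and Zmat3 replicate 3 at 6.71 TPM, with the other 5 between 0.0175 and 1.97 TPM. In the TE, Cdkn1a replicate 1 was low at 61.9 TPM, with the other 5 between 112 and 142 TPM. Among morulae, Trp53 replicate 1 was low at 77.8 TPM, with the other 5 between 123 and 143 TPM, and Mdm2 replicate 3 high at 247 TPM, with the other 5 between 29.6 and 91.7 TPM. At 8C, Ccng1 replicate 2 was high at 57.0 TPM, with the other 5 between 15.0 and 26.8 TPM. At E2C, Mdm2 replicate 2 was high at 62.1 TPM, with the other 5 between 38.4 and 46.4 TPM. At 6 hpa, Mdm4 replicate 2 was high at 1103 TPM, with the other 5 between 568 and 715 TPM, and Ccng1 replicate 1 at 5.67 TPM, with the other 5 between 0.505 and 2.33 TPM. The remaining combinations concern Phlda3 near 0, with 6 hpa replicate 5 at 0.119 TPM, with the other 5 between 0 and 0.00409 TPM, and E2C replicate 1 at 0.0437 TPM with the other 5 listed at 0. No response to a morpholino differed between ICM and TE past the threshold.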

How the results depend on the processing

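The number of members called moved by over 1.5 times in 48 of 275 alternatives. The share of all genes called also differed between fits, as given above for some of them, and is not given beside each count here. The counts below are thus not a measure of the members alone. In Max MO ICM the count of 4 became 2 with all genes above 0, 1 with quantile normalization and 1 with the ICM libraries alone, and ran from 1 to 7 when single libraries were left out. In Mcrs1 MO ICM the count of 1 became 0 with the ICM libraries alone and ran from 0 to 4 without single libraries, and in Mcrs1 MO TE the count of 0 became 1 at a mean TPM of at least 5, 1 with the replicate block and 3 with the TE libraries alone, and ran from 0 to 3. The interactions ran from 0 to 1 each. Between the morpholinos in ICM the count of 1 became 0 with all genes above 0, with quantile normalization and with the ICM libraries alone, and ran from 0 to 4. The replicate number as a block moved no other count, and same-numbered libraries of the morpholino groups correlated at -0.0383 to 0.0574. Among the SCNT steps, replicates 1 to 3 alone gave 0 for L2C, 2 for 4C and 4 for TE against morula, and replicates 4 to 6 alone gave 0 for E2C, 5 for L2C, 2 for morula against 8C, 2 for ICM against morula and 5 for ICM against TE, where the counts were 2, 4, 2, 2, 2, 4, 4 and 2 with all libraries. The 8C count of 2 became 1 with a pseudocount of 0.1 and 1 with all genes above 0, the morula count of 4 became 2 with quantile normalization, and the ICM against TE count of 2 became 1 with all genes above 0. Without single 4C libraries the 4C count ran from 3 to 4 and the 8C count from 1 to 4.

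Of 132 gene changes followed through 2127 combinations with an alternative, the direction and the side of the threshold were kept in 1828, 250 lost the threshold, 37 passed it and 12 changed sign. Trp53 in Max MO ICM was at -0.0679 with rescaled TPM and -0.18 with quantile normalization, and ran from -0.29 to 0.40 without single libraries, and in Max MO TE it was at -0.0530 with rescaled TPM and ran from -0.57 to 0.58. Cdkn1a ran from -2.69 to 0.32 in Max MO ICM and from -0.47 to 2.54 in Mcrs1 MO ICM. In replicates 4 to 6 alone, Sesn2 from 8C to morula was at -0.0359, Mdm2 from morula to ICM at 0.66 and Zmat3 from morula to TE at 0.19. The causes were not tested. The tables hold no counts, so the depth behind a single value is unknown, and 2 libraries a group limit what the morpholino comparisons can call.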
